A study of Ovis aries with 22 samples.

Results

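Elastin and 9 genes whose products build the elastic fibre around it were described in the sinus wall of sheep (Ovis aries) arterial roots. The 10 genes were chosen by name and role among 26200 gene symbols, with earlier results of these data known. They are ELN, FBN1, FBLN5, EFEMP1, EFEMP2, MFAP4, MFAP5, EMILIN1, LOX and LOXL1. All 10 were in the count table, all 10 matched 1 protein-coding sheep gene each in RefSeq, and all 10 were among the 14979 genes abundant enough to be tested.

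Elastic fibres give arterial walls their recoil. Smooth muscle cells and fibroblasts secrete tropoelastin, the soluble product of ELN, onto a scaffold of fibrillin microfibrils. Fibulins bring tropoelastin and lysyl oxidases together, and the oxidases cross-link it into insoluble elastin. Most arterial elastin is laid down around birth and turns over slowly, so transcript levels in an adult wall do not measure the elastin already present.

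The tissue came from the Ross procedure, in which the pulmonary root is moved into the aortic position, where it carries systemic pressure. Autograft sinus was taken from 3 operated sheep 6 months after surgery. Aortic sinus and pulmonary sinus, the native tissue of the new site and of the graft, came from 4 other sheep, named D3 to D6, with both sinuses from each animal. The labels give no breed, age or sex. Aortic replicate 1, from animal D3, carries the treatment label of the operated animals, although the design describes native tissue as non-operated; it was kept in the aortic group, and every comparison was repeated without it and without animal D3.

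Each of the 11 libraries was sequenced in 2 runs, which were added to give 17380599 to 20741334 counts per library. Of 8 smooth muscle markers, 7 were in the table and none was at 0 in any library. Their summed level was 24070 to 47750 CPM (counts scaled to library size) in autograft, 49101 to 69510 CPM in aortic sinus and 51127 to 83702 CPM in pulmonary sinus, and the autograft range lay below both native ranges. The summed level of 8 fibroblast markers was 5200 to 6850 CPM in autograft, 3304 to 4682 CPM in aortic sinus and 1655 to 5120 CPM in pulmonary sinus, with DPEP1 at 0 throughout. The 7 macrophage markers in the table summed to 95.6 to 915 CPM in autograft, 92.7 to 285 CPM in aortic sinus and 38.9 to 221 CPM in pulmonary sinus. The part of these shifts in the levels below was not tested. In tissue of mixed cells, fewer cells of a type and less RNA per cell cannot be told apart.

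Together the 10 genes held 0.565% to 1.02% of a library's counts in autograft, 0.733% to 1.27% in aortic sinus and 0.503% to 1.56% in pulmonary sinus. None of the 10 passed an adjusted p of 0.05 in edgeR's quasi-likelihood test in any comparison. Of all genes tested, 11.3% passed in autograft against pulmonary sinus, 2.38% in autograft against aortic sinus and 0% in aortic against pulmonary sinus. At an unadjusted p under 0.05 in edgeR, MFAP5 was counted in the first comparison (background 30.6%), 0 of 10 in the second (background 23.0%) and EFEMP2 in the third (background 2.04%). DESeq2 and limma-voom also called 0 of 10 in every comparison, and each had 1 of 10 at an unadjusted p under 0.05 in each comparison. With the animal as a fixed block in the native libraries, edgeR had 0 of 10 at that level in the third. The median log2 fold change of the 10 genes was 0.18 in autograft against pulmonary sinus, -0.00 in autograft against aortic sinus and 0.15 in aortic against pulmonary sinus, and over all genes tested each median was 0.00. The 2 autograft comparisons share the autograft libraries and are given side by side.

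**Figure D1:**
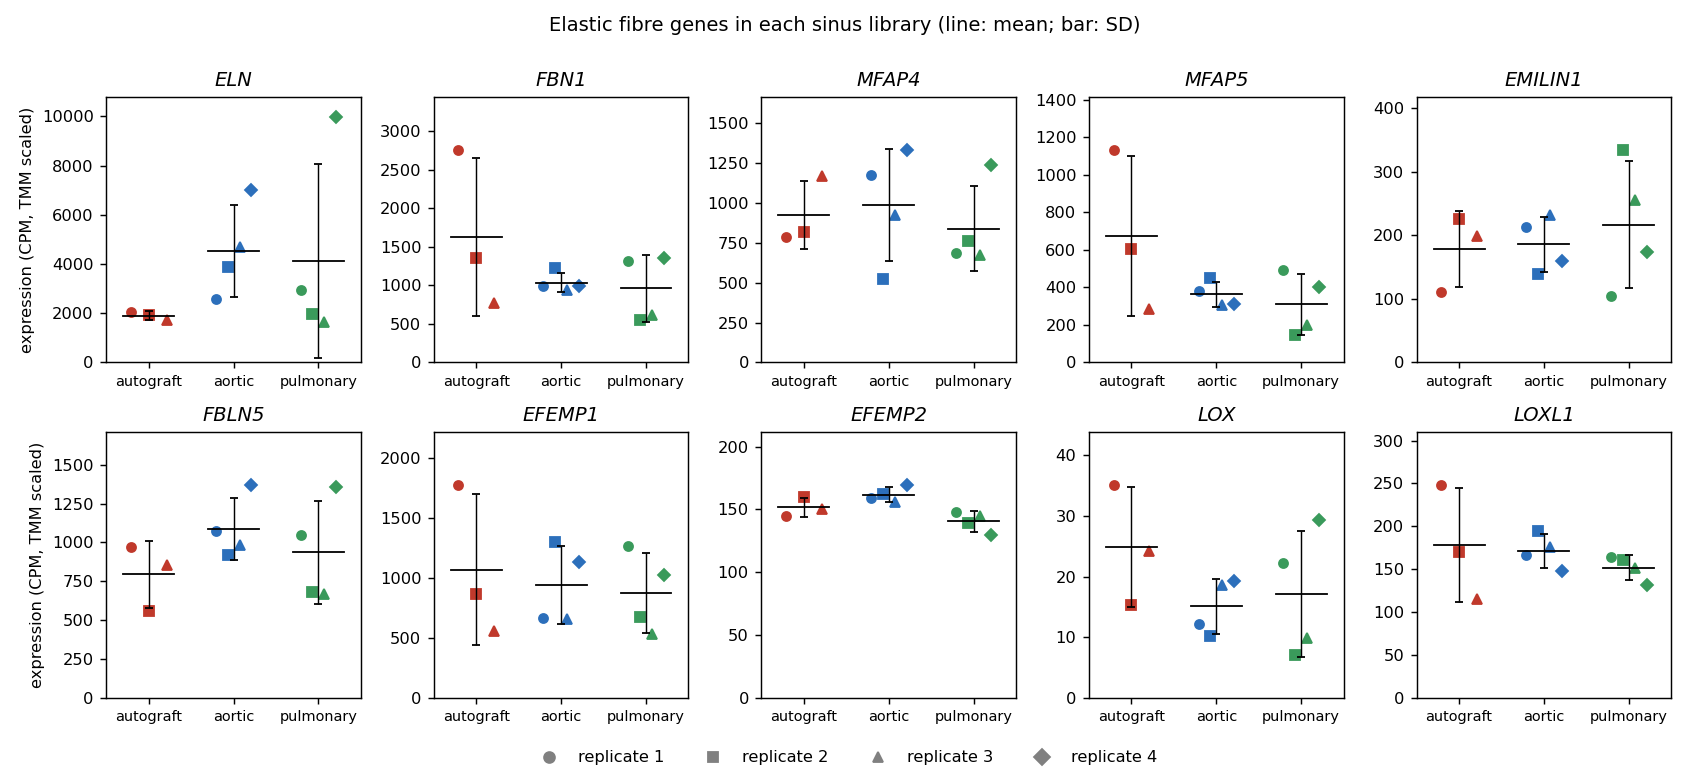
Expression (CPM, TMM scaled, linear axes from 0) of the 10 genes in every library of the autograft, aortic and pulmonary groups, with the mean (line) and SD (bar). The native replicate numbers mark animals D3 to D6, and the autograft numbers mark other animals. The 3 ELN values in autograft lie close together while the pulmonary values run to 9977 CPM, and EFEMP2 is nearly level in all 11 libraries.

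ELN, which encodes tropoelastin, was at 2062, 1920 and 1708 CPM in the autograft libraries. It was at 2572, 3881, 4692 and 6991 CPM in aortic sinus and at 2950, 1961, 1636 and 9977 CPM in pulmonary sinus. All 3 autograft values lay below all 4 aortic values, and they lay inside the pulmonary range, above pulmonary replicate 3. A fully separated lower group was found for 10.8% of all genes tested in autograft against aortic sinus, and ELN was the only one of the 10 genes without overlap there, where 20.6% of genes were separated in either direction and 9.77% were higher in autograft. In autograft against pulmonary sinus none of the 10 was separated, against 22.1% of genes.

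The ELN log2 fold change was -1.26 ± 0.58 (SE; 95% interval -2.53 to 0.01; edgeR adjusted p = 0.221) in autograft against aortic sinus, and -1.45 ± 0.60 without aortic replicate 1 (edgeR adjusted p = 0.243). It was -1.12 ± 0.58 (95% interval -2.39 to 0.14; edgeR adjusted p = 0.212) in autograft against pulmonary sinus. The second value depended on pulmonary replicate 4 (animal D6): without that library it was -0.20 ± 0.33 (edgeR adjusted p = 0.723). Without the same library ELN stood 1.05 ± 0.32 higher in aortic than in pulmonary sinus, against 0.13 ± 0.52 with it (edgeR adjusted p = 0.9998 without it and 0.99995 with it). The spread of ELN differed between groups, with an SD of log2 CPM of 0.14 in autograft, 0.60 in aortic sinus and 1.17 in pulmonary sinus, the last being 0.44 without pulmonary replicate 4. With all 4 libraries, in pulmonary sinus 96.0% of genes tested had a smaller SD, and in autograft 17.0% had.

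By abundance ELN ranked 39, 44 and 63 among the genes of the autograft libraries. It ranked 31, 16, 13 and 7 in aortic sinus and 26, 41, 49 and 5 in pulmonary sinus. Among the counts of the 10 genes, ELN took 20.6% to 29.3% in autograft, 34.7% to 55.3% in aortic sinus and 33.5% to 63.1% in pulmonary sinus. The autograft share lay below every native share, including those of pulmonary replicates 2 and 3, whose ELN level lay within or below the autograft range. For every 1000 CPM of summed smooth muscle markers there were 85.7, 41.5 and 35.8 CPM of ELN in autograft. The same quotient was 39.4, 76.7, 67.5 and 142 in aortic sinus and 57.7, 23.4, 24.0 and 185 in pulmonary sinus. Set against these markers, the autograft values overlapped both native groups.

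Levels can be compared between genes only per length. In the authors' FPKM, which scale fragments by gene length and depth, averaged over runs and libraries, ELN (1487 FPKM), MFAP4 (1464 FPKM) and EFEMP1 (1125 FPKM) stood highest. MFAP5 followed at 388 FPKM, then FBN1 (125), FBLN5 (120), LOXL1 (112), EFEMP2 (99.4) and EMILIN1 (98.01), and LOX was lowest at 14.98 FPKM. The deposited FPKM cannot order the libraries for ELN, because they were equalised in distribution and the most abundant genes share a ceiling. In run 1, 5 libraries carried the same ELN value of 2099 FPKM (aortic replicates 2, 3 and 4 and pulmonary replicates 1 and 4), although their CPM ran from 2950 to 9977. Below that ceiling, autograft replicates 1 and 2 and aortic replicate 1 shared 1253 FPKM, at 2062, 1920 and 2572 CPM. Other members had such ties in run 1. MFAP4 was at 2468 FPKM in autograft replicate 1 (785 CPM) and aortic replicate 4 (1333 CPM). EFEMP1 was at 2336 FPKM in autograft replicate 1 (1772 CPM) and aortic replicate 2 (1302 CPM). The fold changes in FPKM given below carry this limit. In FPKM the ELN log2 fold change was -0.75 ± 0.48 in autograft against aortic sinus and -0.04 ± 0.48 in autograft against pulmonary sinus (limma adjusted p = 0.380 and 0.962, on log2(FPKM + 1)).

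**Figure D2:**
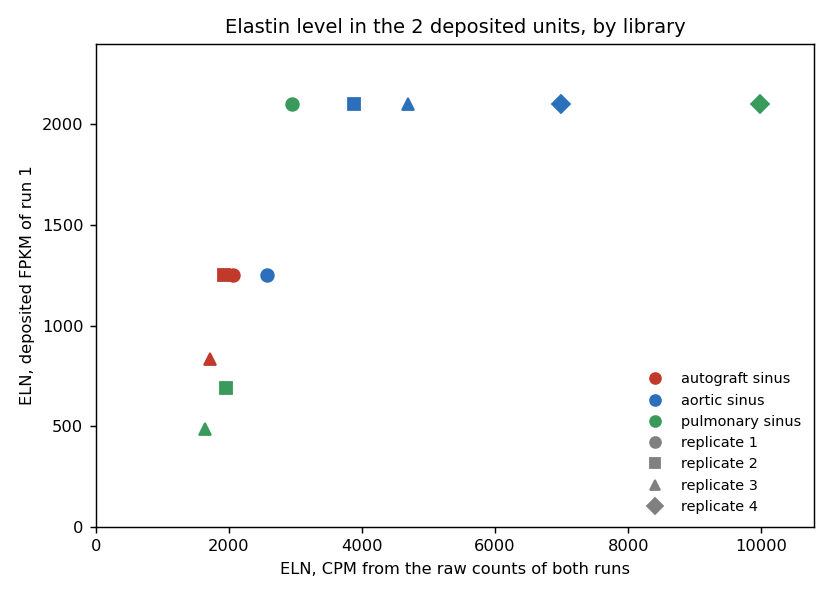
ELN in the authors' FPKM of run 1 (vertical axis) against CPM from the raw counts of both runs (horizontal axis), 1 point per library. The 5 libraries from 2950 to 9977 CPM sit at 1 FPKM level of 2099. Autograft replicates 1 and 2 and aortic replicate 1 (2062, 1920 and 2572 CPM) share a lower level of 1253. The deposited FPKM thus lose order below the ceiling as well as in the upper part of the ELN range.

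CPM divided by the gene length implied by the FPKM steps kept the full range. These values carry 1 unknown factor common to all genes, so only their order and ratios are used. ELN averaged 507 CPM per kilobase in autograft, 1213 in aortic sinus and 1105 in pulmonary sinus. MFAP4 averaged 1024, 1095 and 930 CPM per kilobase in the same 3 groups, and MFAP5 averaged 624, 335 and 286. ELN took rank 4, 3 and 2 of the 10 genes in autograft replicates 1, 2 and 3, and rank 1 or 2 in each of the 8 native libraries. MFAP4 had rank 1 in autograft replicates 2 and 3, and MFAP5 had rank 1 in autograft replicate 1. LOX ranked last in all 11 libraries. Over all libraries the means ran from MFAP4 (1015 CPM per kilobase) and ELN (981) through EFEMP1 (474), MFAP5 (396), FBLN5 (125), FBN1 (119), EFEMP2 (91.3), LOXL1 (66.4) and EMILIN1 (58.2) to LOX (12.2). Against the order in FPKM, the neighbours ELN and MFAP4, FBN1 and FBLN5, and LOXL1 and EFEMP2 changed places.

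FBN1 encodes fibrillin-1, the backbone of the microfibril, whose loss of function underlies Marfan syndrome in humans. It was at 2760, 1350 and 766 CPM in autograft. It was at 992, 1219, 937 and 996 CPM in aortic sinus and at 1320, 554, 620 and 1358 CPM in pulmonary sinus. Autograft replicate 1 stood above all other libraries and replicate 3 lay below all 4 aortic ones. FBN1 had a log2 fold change of 0.76 ± 0.41 in autograft against pulmonary sinus (edgeR adjusted p = 0.241) and 0.65 ± 0.41 in autograft against aortic sinus (edgeR adjusted p = 0.374). Without autograft replicate 1 these values were 0.13 and 0.04, and without autograft replicate 3 the first was 1.09. In FPKM the second was 0.00.

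MFAP5 encodes microfibril-associated glycoprotein 2, which binds fibrillin. It was at 1134, 604 and 285 CPM in autograft. It was at 379, 450, 309 and 313 CPM in aortic sinus and at 491, 146, 200 and 400 CPM in pulmonary sinus. Autograft replicates 1 and 2 stood above all native libraries, and replicate 3 lay below all aortic libraries and inside the pulmonary range. MFAP5 had a log2 fold change of 1.12 ± 0.46 in autograft against pulmonary sinus (95% interval 0.11 to 2.14; edgeR unadjusted p = 0.0327, adjusted p = 0.127). It was 0.90 ± 0.46 in autograft against aortic sinus (edgeR adjusted p = 0.272). Across 23 alternatives the adjusted p in autograft against pulmonary sinus ran from 0.0507 with DESeq2 to 0.479, and without autograft replicate 1 the log2 fold change was 0.52. Without the same library the value in autograft against aortic sinus was 0.30 (edgeR adjusted p = 0.745).

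FBN1 and MFAP5 fell in the same order within the autograft group, with replicate 1 highest and replicate 3 lowest, and so did EFEMP1, LOXL1 and, over a narrow range, ELN. The macrophage marker sum had that order as well, at 915, 595 and 95.6 CPM, while the fibroblast marker sum was 6143, 5200 and 6850 CPM and did not. The smooth muscle marker sum ran the other way, at 24070, 46292 and 47750 CPM. The part of these markers in the 5 genes was not tested.

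MFAP4 encodes a microfibril-associated glycoprotein that binds tropoelastin and fibrillin. It was at 785, 817 and 1168 CPM in autograft. It was at 1173, 522, 921 and 1333 CPM in aortic sinus and at 684, 762, 671 and 1235 CPM in pulmonary sinus. Each group spanned much the same range, and the log2 fold change was 0.14 ± 0.31 in autograft against pulmonary sinus (edgeR adjusted p = 0.797) and -0.10 ± 0.31 in autograft against aortic sinus (edgeR adjusted p = 0.880). The first value was -0.07 without autograft replicate 3, and the second was 0.29 in FPKM.

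EMILIN1 encodes a glycoprotein found where elastin meets the microfibril. It was at 111, 226 and 198 CPM in autograft. It was at 213, 139, 231 and 159 CPM in aortic sinus and at 104, 334, 255 and 174 CPM in pulmonary sinus. Its lowest values were in autograft replicate 1 and pulmonary replicate 1, and the groups overlapped. For EMILIN1 the log2 fold change was -0.28 ± 0.36 in autograft against pulmonary sinus (edgeR adjusted p = 0.637) and 0.01 without pulmonary replicate 2. In autograft against aortic sinus it was -0.06 ± 0.36 (edgeR adjusted p = 0.940), and 0.20 without autograft replicate 1.

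The fibulins join tropoelastin to microfibrils and to the cross-linking enzymes. FBLN5, fibulin-5, is needed for normal elastic fibres in mice. It was at 973, 557 and 853 CPM in autograft. It was at 1076, 917, 983 and 1368 CPM in aortic sinus and at 1047, 679, 665 and 1357 CPM in pulmonary sinus. Autograft replicates 2 and 3 lay below all aortic values, and replicate 1 lay inside the aortic range. FBLN5 had a log2 fold change of -0.45 ± 0.28 in autograft against aortic sinus (95% interval -1.06 to 0.16; edgeR adjusted p = 0.357) and -0.24 ± 0.28 in autograft against pulmonary sinus (edgeR adjusted p = 0.595). The second value was -0.00 without pulmonary replicate 4.

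EFEMP2, fibulin-4, tethers lysyl oxidase to tropoelastin, and its loss gives aneurysms in humans and mice. It was at 145, 160 and 150 CPM in autograft. It was at 159, 163, 156 and 169 CPM in aortic sinus and at 148, 139, 145 and 129 CPM in pulmonary sinus. These were the narrowest ranges of the 10 genes, with a coefficient of variation of 5.05% in autograft, 3.58% in aortic sinus and 5.83% in pulmonary sinus. For EFEMP2 the log2 fold change was 0.11 ± 0.09 in autograft against pulmonary sinus (95% interval -0.09 to 0.31; edgeR adjusted p = 0.432). In autograft against aortic sinus it was -0.09 ± 0.09 (95% interval -0.29 to 0.10; edgeR adjusted p = 0.567), and 0.04 in FPKM.

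EFEMP2 was also the only one of the 10 genes whose aortic libraries all lay above its pulmonary libraries, a pattern found in 0.714% of genes tested; the reverse held for 0.701%, and the 2 together made 1.42%. Its log2 fold change in aortic against pulmonary sinus was 0.20 ± 0.08 (95% interval 0.02 to 0.39; edgeR unadjusted p = 0.0318, adjusted p = 0.99995). That fit did not pair the 2 sinuses of an animal. With the animal as a fixed block, 0 of the 10 genes had an edgeR unadjusted p under 0.05. The same held without the low-count filter, in FPKM (limma), and without aortic replicate 2, aortic replicate 4 or pulmonary replicate 2. Within animals, the log2 difference of the aortic over the pulmonary sinus was 0.10 in D3, 0.22 in D4, 0.11 in D5 and 0.39 in D6. FBLN5 and LOXL1 were also higher in the aortic sinus in 4 of 4 animals, by 0.01 to 0.56 and by 0.02 to 0.27 on the log2 scale, as were 5.91% of genes tested. The pairing of D3 and D4 is uncertain: over all genes, the aortic library of D4 deviated together with the pulmonary library of D3 (r = 0.40), and that of D3 with the pulmonary library of D4 (r = 0.26), while the pairs as labelled had an r of -0.13 in D4 and -0.18 in D3. With these 2 animals exchanged, an alternative chosen after seeing the data, EFEMP2 and LOXL1 were higher in 4 of 4 pairs and FBLN5 in 3 of 4, with -0.19 for the aortic library of D4. In the pairs as labelled, the sign differed between animals for ELN, at -0.20 in D3, 0.98 in D4, 1.52 in D5 and -0.51 in D6, and for each of the other 6 genes. Of the 10 genes, 8 had a positive and 2 (EMILIN1 and LOX) a negative log2 fold change in aortic against pulmonary sinus, between -0.22 and 0.24. For 6 of them (ELN, FBN1, EFEMP1, MFAP5, EMILIN1 and LOX) the sign changed when 1 of the native libraries was left out.

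EFEMP1 encodes fibulin-3, a relative of fibulin-4 and fibulin-5. It was at 1772, 867 and 560 CPM in autograft. It was at 667, 1302, 655 and 1135 CPM in aortic sinus and at 1268, 671, 529 and 1024 CPM in pulmonary sinus. Autograft replicate 1 stood above all other libraries, and the other autograft libraries lay among the native ones. The log2 fold change was 0.29 ± 0.41 in autograft against pulmonary sinus (edgeR adjusted p = 0.674) and 0.18 ± 0.42 in autograft against aortic sinus (edgeR adjusted p = 0.828). Without autograft replicate 1 these values were -0.30 and -0.39, and in FPKM the second was -0.49.

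LOX encodes lysyl oxidase, which cross-links elastin and collagen, and was the least abundant of the 10 genes. It was at 35.1, 15.3 and 24.2 CPM in autograft. It was at 12.2, 10.3, 18.6 and 19.3 CPM in aortic sinus and at 22.2, 7.14, 9.93 and 29.3 CPM in pulmonary sinus. Autograft replicate 1 was the highest of all libraries, and the groups overlapped. The log2 fold change was 0.72 ± 0.46 in autograft against aortic sinus (edgeR adjusted p = 0.372) and 0.54 ± 0.46 in autograft against pulmonary sinus (edgeR adjusted p = 0.453). Without autograft replicate 1 these values were 0.39 and 0.20, and without pulmonary replicate 4 the second was 0.93.

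LOXL1, a lysyl oxidase that acts on elastin in mice, was at 248, 170 and 116 CPM in autograft. It was at 166, 195, 176 and 148 CPM in aortic sinus and at 164, 161, 151 and 131 CPM in pulmonary sinus. The autograft libraries ran from above to below all native ones. The log2 fold change was 0.23 ± 0.21 in autograft against pulmonary sinus (edgeR adjusted p = 0.496) and 0.06 ± 0.21 in autograft against aortic sinus (edgeR adjusted p = 0.894). Without autograft replicate 1 these values were -0.10 and -0.25.

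**Figure D3:**
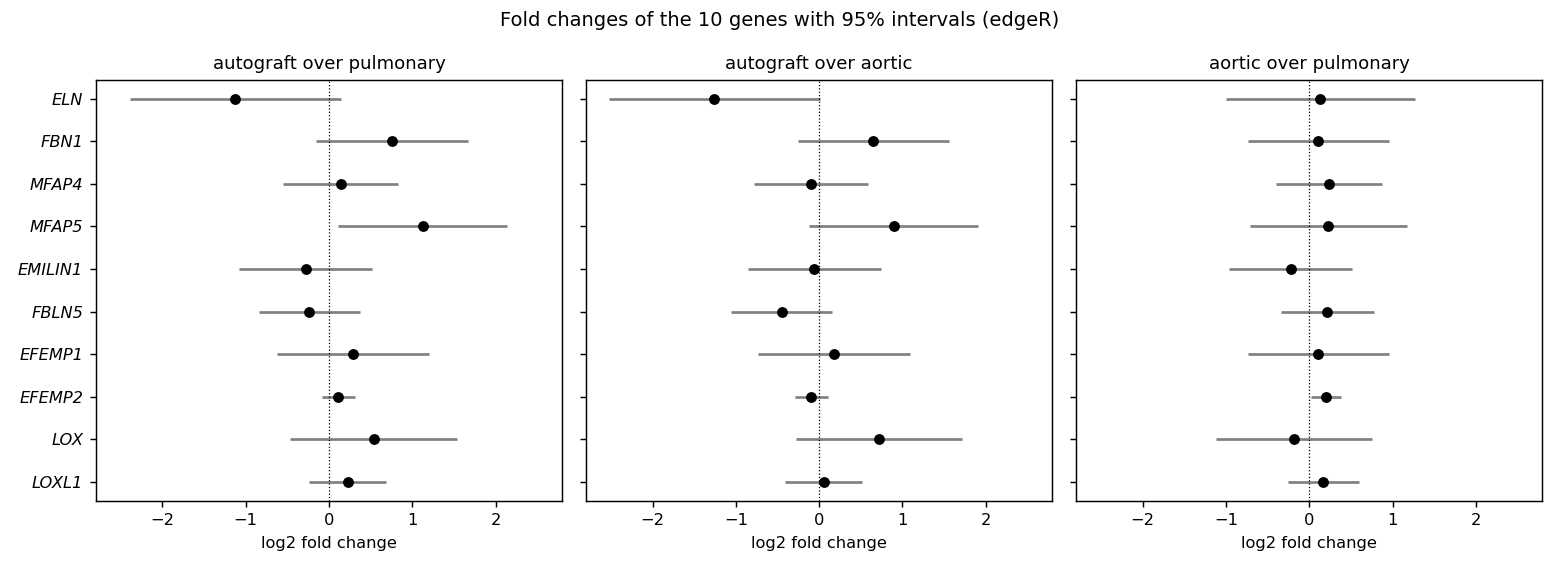
Log2 fold changes of the 10 genes (points) with 95% intervals (lines) from edgeR in autograft over pulmonary sinus, autograft over aortic sinus and aortic over pulmonary sinus. The ELN interval runs from -2.53 to 0.01 against aortic sinus, that of EFEMP2 is the narrowest in each panel, and the MFAP5 interval against pulmonary sinus (0.11 to 2.14) and the EFEMP2 interval between the native sinuses (0.02 to 0.39) leave out 0. The fit behind these intervals did not pair the native sinuses of an animal.

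Ratios within a library do not depend on how libraries are scaled. The ratio of ELN to COL1A1, a chain of collagen I, was 0.408, 0.423 and 0.460 in autograft. It was 1.23, 1.52, 2.53 and 4.38 in aortic sinus and 1.53, 1.63, 1.02 and 5.26 in pulmonary sinus. All 3 autograft libraries lay below all 8 native ones. The log2 ratio was lower by a difference of -2.31 in autograft against aortic sinus and -2.15 in autograft against pulmonary sinus.

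The ratio of ELN to COL3A1, the chain of collagen III, was 0.152, 0.248 and 0.252 in autograft. It was 0.612, 0.886, 1.24 and 1.75 in aortic sinus and 0.588, 0.828, 0.599 and 2.02 in pulmonary sinus. All 3 autograft libraries lay below all native ones, with log2 differences of -2.30 against aortic sinus and -2.05 against pulmonary sinus. The ratio of ELN to FBN1 was 0.747, 1.42 and 2.23 in autograft. It was 2.59, 3.18, 5.01 and 7.02 in aortic sinus and 2.24, 3.54, 2.64 and 7.34 in pulmonary sinus. The highest autograft value and the lowest pulmonary value were 2.230 and 2.235, so this separation was narrow, and the log2 differences were -1.63 against aortic sinus and -1.40 against pulmonary sinus.

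For these 6 comparisons the two-sided exact permutation p was 0.0571, the smallest that 3 against 4 libraries can give, so none could pass. The Benjamini-Hochberg value over 21 ratio tests was 0.2. COL1A1 and COL3A1 were known from earlier results of these data to be higher in autograft, so the direction of the first 2 ratios is no separate evidence. COL1A1 was at 5057, 4537 and 3711 CPM in autograft, at 1596 to 2547 CPM in aortic sinus and at 1206 to 1932 CPM in pulmonary sinus. Without pulmonary replicate 4 the log2 differences of the 3 ratios in autograft against pulmonary sinus were -1.66, -1.65 and -1.05. The ratio of ELN to FBN1 also depended on autograft replicate 1, without which its log2 differences were -1.21 against aortic sinus and -0.98 against pulmonary sinus. In the authors' FPKM, where ELN has a ceiling, they were -0.75 and -0.54, those of ELN to COL1A1 were -2.12 and -1.72, and those of ELN to COL3A1 were -2.04 and -1.34, in the same order. The other 4 ratios (LOX to LOXL1, EFEMP1 to FBLN5, EFEMP1 to EFEMP2 and MFAP5 to MFAP4) overlapped between groups, with log2 differences of -0.18 to 0.91 and exact permutation p of 0.229 to 0.800.

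**Figure D4:**
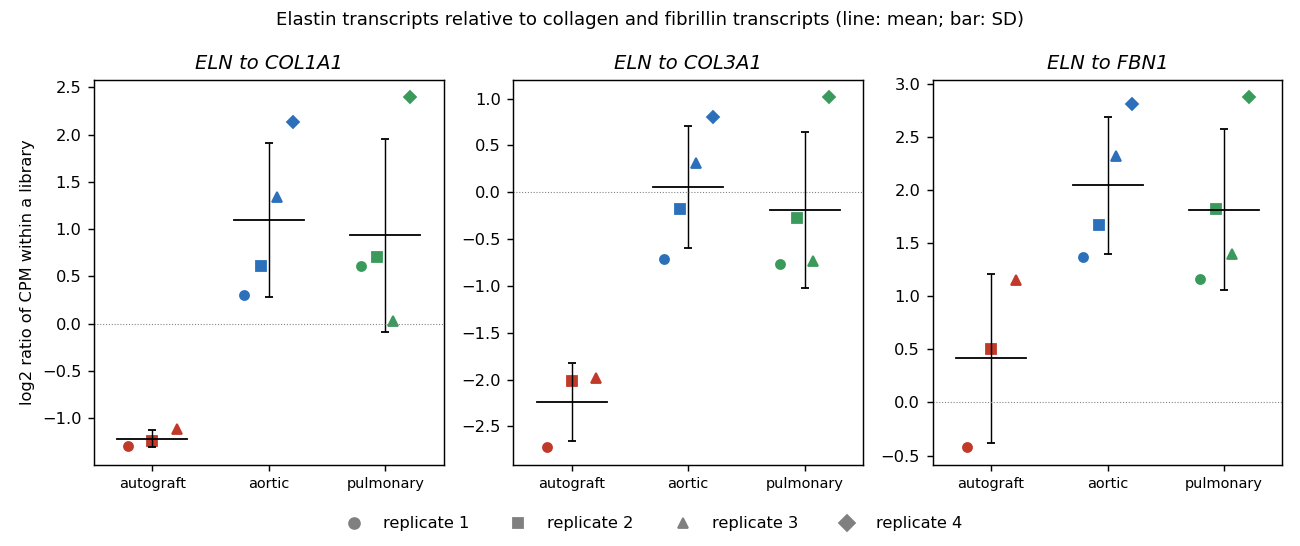
Log2 ratio of ELN to COL1A1, COL3A1 and FBN1 within each library (points), with group mean (line) and SD (bar). The autograft libraries lie below every native library in all 3 panels, and pulmonary replicate 4 has the highest value in each panel.

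Some of the 10 genes ranked the libraries alike. The correlations are across 11 libraries from 7 animals, with both sinuses of 4 animals in the set, and are a description. FBN1 and MFAP5 had a Pearson r of 0.97 and a Spearman rho of 0.94, with an r of 0.95 without autograft replicate 1, 0.97 in the 8 native libraries and 0.93 without the 2 libraries farthest from the FBN1 median. FBN1 and EFEMP1 had an r of 0.85 (0.80 without the 2 farthest libraries). EMILIN1 ran against both, with an r of -0.84 to EFEMP1 (-0.78 without the 2 farthest) and -0.78 to FBN1 (-0.57 without them).

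ELN and FBN1 had an r of 0.21 and a rho of 0.42 over all 11 libraries (r = 0.19 without the 2 farthest). Their r was 0.53 without autograft replicate 1, 0.69 in the 8 native libraries and 0.52 around the group means. Of the other 9 genes it was nearest to FBLN5, with an r of 0.80, a rho of 0.84 and an r of 0.59 without the 2 libraries farthest from the ELN median. Around the group means, FBLN5 and LOX deviated together with an r of 0.91, and over all 11 libraries their r was 0.54. EFEMP2, whose level hardly varied, had an r between -0.19 and 0.18 to each of the other 9 genes.

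**Figure D5:**
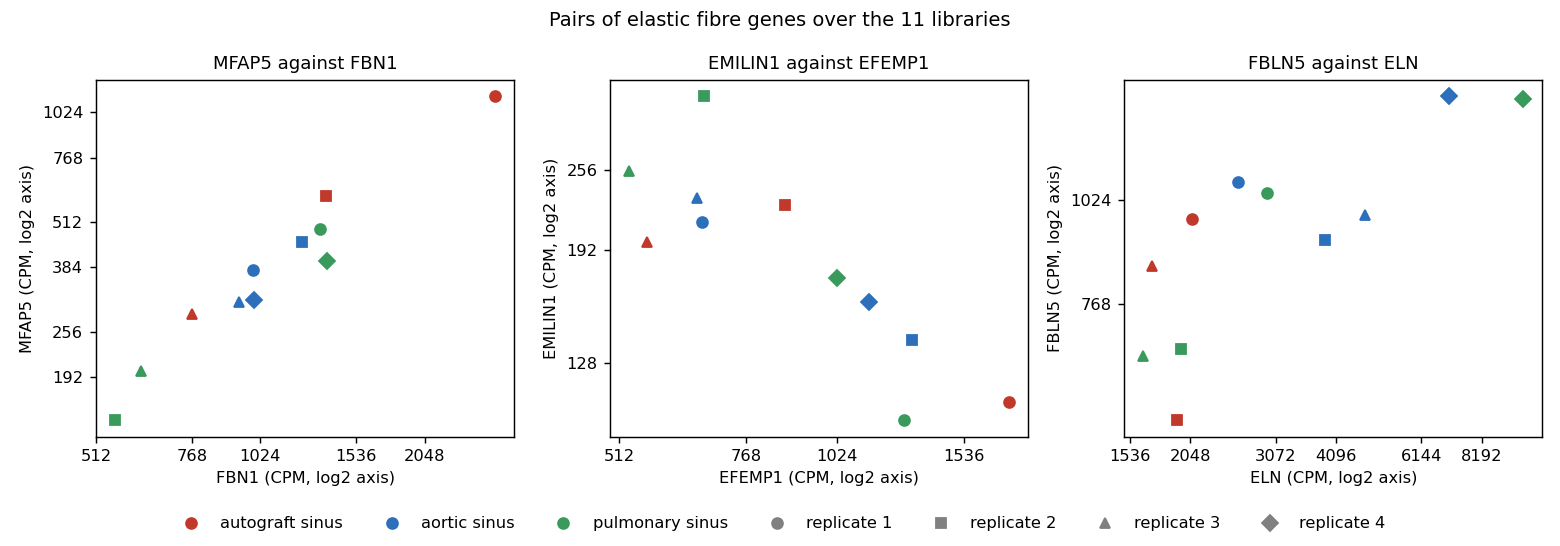
MFAP5 against FBN1, EMILIN1 against EFEMP1 and FBLN5 against ELN in CPM on log2 axes, 1 point per library. MFAP5 climbs with FBN1 over the whole range (r = 0.97), EMILIN1 declines with EFEMP1 (r = -0.84), and FBLN5 climbs with ELN (r = 0.80), with aortic and pulmonary replicate 4 at the top.

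Among 8738 other genes with a mean of at least 10 CPM, the 5 whose log2 CPM was most like that of ELN were RBSN (r = 0.93), FUK (0.86), GPATCH2L (0.86), PPM1A (0.85) and EPB41L3 (0.83). Without the 2 libraries farthest from the ELN median these values were 0.80, 0.53, 0.76, 0.54 and 0.56, so for ELN the likeness rested partly on those libraries. The 5 most like FBN1 were FSTL1 (r = 0.98), CYFIP1 (0.97), LASP1 (0.96), TNXB (0.96) and AP3B1 (0.94), with 0.88 to 0.94 without the 2 farthest libraries. TNXB, which encodes the matrix protein tenascin-X, and FSTL1, which encodes a secreted glycoprotein, were also among the 5 genes most like MFAP5, at 0.96 and 0.97.

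Around these 10 genes, 79 others of elastic fibre formation and breakdown were listed, with earlier results of these data known. Of these, 78 were in the table and 73 were tested. In autograft against pulmonary sinus 9 were higher and 4 lower at an edgeR adjusted p under 0.05, against a background of 6.05% and 5.29% of genes tested, and the median log2 fold change was 0.36. In autograft against aortic sinus 4 were higher and 3 lower, against 0.948% and 1.43%, and the median was 0.27. In aortic against pulmonary sinus 0 of 73 passed, and 1 had an unadjusted p under 0.05.

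Of 17 tested elastin-degrading enzymes and their inhibitors, 4 were higher in autograft than in pulmonary sinus and 3 were higher in autograft than in aortic sinus, and none was lower. Of all genes tested, 6.05% were called higher in the first comparison and 0.948% in the second. The median log2 fold change of the list was 0.79 and 0.66 in the 2 comparisons, against 0.00 over all genes. The list was chosen with earlier results of these data known, so its median is a description. It mixes enzymes with inhibitors, so the median gives no direction for elastin breakdown. MMP2, gelatinase A, which cleaves elastin and basement membrane collagen, was at 604, 682 and 464 CPM in autograft, at 126 to 195 CPM in aortic sinus and at 74.5 to 167 CPM in pulmonary sinus. It rose by 2.08 ± 0.26 (log2, SE; edgeR adjusted p = 0.00420) over pulmonary sinus and by 1.90 ± 0.26 (edgeR adjusted p = 0.0109) over aortic sinus, and it passed in all 23 alternatives. CST3, cystatin C, an inhibitor of cysteine cathepsins, rose by 1.09 ± 0.20 over pulmonary sinus (edgeR adjusted p = 0.0139) and by 0.98 ± 0.20 over aortic sinus (edgeR adjusted p = 0.0372). CTSK, the elastin- and collagen-degrading cathepsin K, was at 640, 422 and 427 CPM in autograft and at 119 to 301 CPM in pulmonary sinus, a rise of 1.20 ± 0.27 (edgeR adjusted p = 0.0220). CTSV, another cysteine cathepsin, rose by 0.73 ± 0.15 over aortic sinus (edgeR adjusted p = 0.0376). The fibroblast marker sums given above lay narrowly above every native library in autograft, the lowest autograft sum being 5200 CPM and the highest native sum 5120 CPM. The sum of 8 lymphocyte markers lay above every native library as well, at 30.9 to 35.3 CPM in autograft, 4.36 to 8.002 CPM in aortic sinus and 1.55 to 5.25 CPM in pulmonary sinus. None of the 8 was at 0 in autograft and up to 3 were in a native library, and the part of these cells in the enzyme levels was not tested.

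Of 28 tested genes of the microfibril and its assembly, 2 rose and 2 fell in autograft against pulmonary sinus. Of all genes tested, 6.05% rose and 5.29% fell there. In autograft against aortic sinus 1 rose and 1 fell, against 0.948% and 1.43% of all genes. These counts are too small to describe the list as a whole. ADAMTS10, a secreted protein that binds fibrillin-1, was at 40.7, 38.5 and 40.2 CPM in autograft, at 65.6 to 103 CPM in aortic sinus and at 64.3 to 101 CPM in pulmonary sinus. It fell by 0.996 ± 0.184 (log2, SE; edgeR adjusted p = 0.0135) against pulmonary sinus and by 1.04 ± 0.18 (edgeR adjusted p = 0.0275) against aortic sinus. DCN, decorin, a small proteoglycan that binds collagen fibrils, rose by 1.40 ± 0.31 (edgeR adjusted p = 0.0204) and by 1.36 ± 0.31 (edgeR adjusted p = 0.0472) in the same 2 comparisons. In limma-voom the second adjusted p for DCN was 0.0567, and 0.0555 with the animal as a random block.

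Of 12 tested receptors and receptor subunits for elastin or its partners, 0 rose and 2 fell in autograft against pulmonary sinus. Of all genes tested, 5.29% fell there. In autograft against aortic sinus 1 of the 12 fell, against 1.43% of all genes. These counts are too small to describe the list as a whole. ITGA8, the integrin alpha-8 chain of smooth muscle, was at 847, 722 and 922 CPM in autograft, at 1188 to 1239 CPM in aortic sinus and at 1196 to 1339 CPM in pulmonary sinus. It fell by 0.62 ± 0.11 (log2, SE; edgeR adjusted p = 0.0131) against pulmonary sinus and by 0.55 ± 0.11 (edgeR adjusted p = 0.0372) against aortic sinus. ITGA9, the integrin alpha-9 chain, fell by 0.94 ± 0.20 (edgeR adjusted p = 0.0184) against pulmonary sinus. The autograft libraries with less ITGA8 also had less summed smooth muscle marker than every native library, and the part of those cells in the fall was not tested.

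Of 16 tested genes of secretion and cross-linking, 3 rose and 0 fell in autograft against pulmonary sinus. Of all genes tested, 6.05% rose and 5.29% fell there. In autograft against aortic sinus 0 rose and 1 fell, against 0.948% and 1.43% of all genes. These counts are too small to describe the list as a whole. The 3 that rose over pulmonary sinus were POSTN, by 1.67 on the log2 scale (edgeR adjusted p = 0.0318), PYCR1, by 1.08 (0.0234), and FKBP10, by 0.57 (0.0284). LOXL3, a lysyl oxidase, was at 85.8, 104 and 90.9 CPM in autograft and at 113 to 161 CPM in aortic sinus, a fall by 0.60 ± 0.14 (log2, SE; edgeR adjusted p = 0.0472). COL1A1 is not among these 16 genes. It rose by 1.42 ± 0.21 over pulmonary sinus (edgeR adjusted p = 0.00713) and by 1.13 ± 0.21 over aortic sinus (edgeR adjusted p = 0.0281).

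Leaving out single libraries ended many of these calls. Of the 13 calls against pulmonary sinus, 4 (MMP2, ADAMTS10, ITGA8 and CST3) held in all 11 such fits, and without pulmonary replicate 3 only those 4 were left. DCN (edgeR adjusted p = 0.0594 without pulmonary replicate 3), CTSK (0.0561 and 0.0640 without autograft replicate 1 or pulmonary replicate 3) and ITGA9 (0.0506 to 0.0661 without autograft replicate 2 or pulmonary replicate 2 or 3) were among those that ended. Of the 7 calls against aortic sinus, MMP2 alone held in all 11 fits. The other 6 and COL1A1 ended without autograft replicate 1 (edgeR adjusted p = 0.0543 to 0.104) or 2 (0.0790 to 0.122), or without aortic replicate 3 (0.0794 to 0.133) or 4 (0.0601 to 0.0946). All but LOXL3 ended without aortic replicate 1 (0.0590 to 0.0873), the library with the surgery label, and without all of animal D3 (0.0515 to 0.0854). Leaving out autograft replicate 3, aortic replicate 2 or pulmonary replicate 2, 3 or 4 ended between 1 and 5 of these 7 genes' calls (0.0503 to 0.0928).

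Other settings ended some calls too. With the 2 groups fitted alone, all of the 13 calls against pulmonary sinus except those of MMP2 and ADAMTS10 ended (edgeR adjusted p = 0.0511 to 0.0810). The calls of LOXL3, ITGA8 and CST3 against aortic sinus ended too (edgeR adjusted p = 0.0521 to 0.0771). In FPKM, on log2(FPKM + 1), the DCN value was 0.92 against pulmonary sinus and 0.56 against aortic sinus (limma adjusted p = 0.0914 and 0.344), and the calls of LOXL3, ITGA8, CST3 and COL1A1 against aortic sinus ended (limma adjusted p = 0.0529 to 0.0816). Without the filter on low counts LOXL3 and ITGA8 ended against aortic sinus (edgeR adjusted p = 0.0531 and 0.0527), and in run 1 alone LOXL3 did (0.0620). Against pulmonary sinus, POSTN and ADAMTSL5 (of the microfibril list) also ended in FPKM, on log2(FPKM + 1) (limma adjusted p = 0.109 and 0.0944). ADAMTSL5 ended in run 1 alone as well (edgeR adjusted p = 0.0546). The calls of MMP2 and ADAMTS10 held under these settings in both comparisons.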

How the data were processed

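Per the labels' protocols, total RNA was isolated with TRIzol and sequenced from TruSeq libraries. Tools named in the submitters' processing notes, without roles, are featureCounts 1.5.3, STAR 2.5.2b, Bowtie2 2.3.3.1 and cutadapt. Build, annotation and strand setting were not given in the sources used here, and overlapping or antisense genes cannot be separated. Raw counts per gene symbol were deposited for each run. An unnamed row with at most 0.000522% of counts was dropped. The deposited FPKM tables hold the authors' FPKM. In them the values are whole multiples of 1 step per gene (within 0.02) for 15272 of 15272 genes in run 1 and 15074 of 15080 in run 2, and 87.0% of ranks have the same multiple in every library of run 1, so the distribution was equalised before deposit. They served for levels per length and as an alternative unit.

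Between the 2 runs of a library the chi-square per gene was 1.39 to 1.52, and between libraries of a group 31.9 to 112, so runs were added as 1 sample. Replicates are separate animals, per the labels. After filterByExpr and TMM scaling, the 11 libraries were fitted together, by group alone, with the quasi-likelihood model of edgeR 4.0.16 in its earlier form (limma 3.58.1, DESeq2 1.42.0 and R 4.3.3 elsewhere), with Benjamini-Hochberg adjustment over 14979 genes and calls under 0.05. The fit was tested on simulated data. SE is the absolute log2 fold change over the square root of F. CPM on the log2 scale used a prior count of 2. Ratios were tested by two-sided exact permutation over libraries. The members and lists were chosen with earlier results of these data known. All 10 members are named. Of the other lists, up to 8 called genes per comparison are named, smallest p first, and some further called genes. For ELN and FBN1 the 5 most correlated genes are named. Genes of the other lists and markers were counted whole. The alternatives were other scaling, no filter, DESeq2, limma-voom, edgeR's newer method (added after seeing the data), 2 groups alone, FPKM, single runs, each library left out, no animal D3, and the animal as a block. Native libraries are paired by the animal in the labels. Their deviations from the group means correlated by -0.18 in D3, -0.13 in D4, 0.43 in D5 and 0.45 in D6, against 0.40 when D4 aortic tissue is set beside D3 pulmonary tissue and 0.26 for D3 aortic beside D4 pulmonary, so the pairing within D3 and D4 is uncertain.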

Additional observations from a re-analysis of the deposited data

Results flagged for a closer look

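In the native groups of 4 libraries, 68 sets of values were examined for a library far from the others, and 6 were found. The rule was applied to CPM and ratios of CPM, not to their log2 values. Several sets share the same ELN values, so the 6 are not independent and are set against no chance rate. Pulmonary replicate 4 (animal D6) stood apart for ELN, at 9977 CPM against 2950 CPM in the next library, and for MFAP4, at 1235 CPM against 762 CPM. The same library stood apart for the ratio of ELN to COL1A1, at 5.26 against 1.63 in the next library, and for the ratio of ELN to COL3A1, at 2.02 against 0.828. Pulmonary replicate 2 stood apart for MMP2, at 74.5 CPM against 154 CPM in the next lowest library. Aortic replicate 2 stood apart for the ratio of MFAP5 to MFAP4, at 0.861 against 0.335 in the next library.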

How the results depend on the processing

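None of the 10 elastic fibre genes was called in any comparison under any of the alternatives run. Of 690 member fold changes recomputed, 36 changed sign, in 15 of 30 results, and 0 passed the threshold. Of 259 recomputed ratio differences, 21 changed sign, in 10 of 21 results. None of them could pass with so few libraries, so that 0 passed carries no information. The smallest possible exact permutation p was 0.0571 for 3 against 4 libraries. It was 0.0286 for 4 against 4, before adjustment over 21 tests, and 0.125 for the exact sign-flip over 4 animals. Over all genes, 1699 were called in autograft against pulmonary sinus, 356 in autograft against aortic sinus and 0 in aortic against pulmonary sinus. DESeq2 called 2997 and 1469 in the first 2 comparisons, edgeR's newer method 1989 and 534. Fitting the 2 groups alone called 479 in autograft against pulmonary sinus, and leaving out animal D3 called 110 in autograft against aortic sinus. Leaving out 1 library gave 452 to 2753 and 25 to 576 calls in those comparisons. The cause of these shifts was not tested. With the animal as a random block (correlation 0.12) 1611 and 361 genes were called and 0 of the 10, and as a fixed block in the native animals 0 genes were called in aortic against pulmonary sinus. Against the same limma-voom test without it, the random block changed none of the calls of the named results. With 3 or 4 animals per group the intervals of ELN, FBN1, MFAP5, LOX and EFEMP1 in both autograft comparisons still span changes of 1 log2 unit. So do those of FBLN5 against aortic sinus (to -1.06) and of EMILIN1 against pulmonary sinus (to -1.08).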
